A study of Homo sapiens with 12 samples.

Results

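Homologous recombination, the Fanconi pathway and the checkpoint kinases were followed as a group of 33 genes in HK-2 cells exposed to a compound that the labels call Nnm. The group was chosen by name and role, with earlier results of these data known. It holds BRCA1 and its partners, factors of strand exchange, the Fanconi complexes and the BLM dissolution complex. The proteins that bind and trim broken ends and the kinases that signal damage complete it. Of these 33 genes, 28 had a probe set of their own, out of 10966 genes tested. All 28 lay above the filter on low values. BRCA2, FANCA, FANCD2 and RBBP8 were not analysed here, and ATRIP was measured only together with TREX1.

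Homologous recombination mends DNA breaks by copying the intact sister chromatid: the broken ends are trimmed to single strands, BRCA1, PALB2 and BRCA2 prepare them for pairing with the template, and the BLM complex resolves the joined molecules. The Fanconi pathway uses the same machinery after a core complex attaches ubiquitin to FANCD2 and FANCI at crosslinked DNA. ATR with CHEK1 signals stalled replication forks and ATM with CHEK2 signals breaks, and many of these genes are transcribed mainly in late G1 and S phase of dividing cells.

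The study measured 12 Affymetrix arrays, 1 per sample, in 4 groups of 3 biological replicates: cells given a high dose of Nnm for 24 h, their vehicle controls at 24 h, cells given the same dose for 48 h, and their vehicle controls at 48 h. HK-2 is a human proximal tubule line immortalized with papillomavirus oncogenes, which disable p53 and RB, and all 4 groups share this. It was grown here in a DMEM and Ham's F12 mixture with EGF, hydrocortisone, insulin, transferrin and selenite and was treated close to confluence. Neither the dose, nor the vehicle, nor what Nnm stands for is given further in the sources used here. The series asks which transcripts a kidney toxicant changes in this line.

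Values are log2 expression levels made with GCRMA, and differences between groups are log2 differences. Array medians lay between 2.91 and 2.98, and 22023 to 22228 probe sets per array were above log2 4. Both Nnm arrays numbered 2 stood apart from the other Nnm arrays: on the first principal component, with 57.4% of the variance, they lay at -16.1 at 24 h and -19.8 at 48 h, against 68.6 to 87.8 for the other 4 Nnm arrays and -49.6 to -44.2 for the 6 control arrays. All 5 epithelial markers were above log2 4 on all 12 arrays. Of 12 proximal tubule markers, DPP4 and PDZK1 were above it on all arrays and 10 on none, LRP2, CUBN and AQP1 among them, so the tubule's defining transporters and receptors were at background in this line. No leukocyte or distal nephron marker was above log2 4 on any array, while 3 of 6 fibroblast markers (COL1A1, LUM and DCN) were above it on all 12. No marker of these lists or of the podocyte and endothelial lists was called in a comparison. With the replicate number as a block, 1 epithelial marker was called lower at each time, 1 fibroblast marker lower at 24 h, 1 proximal tubule marker higher at 48 h and 1 podocyte marker higher at each time.

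Nnm against control at 24 h. The main damage kinase of the replication fork, ATR, and the bridge between BRCA1 and BRCA2, PALB2, were lower in Nnm than in control cells at 24 h. No member of the group passed the test as higher. The other 26 measured genes did not pass the test. Called means a limma adjusted p under 0.05, with Benjamini-Hochberg adjustment over all 22829 tested probe sets. Members called lower were 2 of 28, or 7.14%, where 7.42% of all tested probe sets were called lower, and members called higher were 0, where 7.32% of all were. In either direction 14.7% of all tested probe sets were called. Limma's unadjusted p was under 0.05 for 9 of 28 members and for 8174 of all 22829 probe sets. The share called was therefore near the background in the lower direction and nothing particular to the group follows from it.

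ATR, which is recruited to single-stranded DNA and activates CHEK1, stood at 8.57, 9.88 and 8.70 in Nnm cells at 24 h, against 10.12, 10.26 and 10.24 in control cells. All Nnm arrays lay below all control arrays, with the Nnm array numbered 2 nearest to them. The difference was -1.16 ± 0.32 (log2, SE, n = 3 each), a 2.24-fold lower level, with a 95% interval from -1.88 to -0.44 and a limma adjusted p of 0.04025. Each SE and interval of a difference is limma's moderated one, from a spread shared by all 4 groups and not from the compared groups alone. A second ATR probe set differed by -1.40, with a limma adjusted p of 0.03822. At 48 h the values were 9.14, 9.89 and 9.07 in Nnm cells, against 9.77, 10.02 and 9.88 in control cells. These overlapped, and the difference of -0.53 had a limma adjusted p of 0.2965.

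PALB2, which carries BRCA2 to BRCA1 at breaks, had levels of 7.71, 8.49 and 7.74 in Nnm cells at 24 h and 8.50, 8.73 and 8.63 in control cells. The groups did not overlap, but the highest Nnm array, numbered 2, reached the lowest control array to within 0.01. The difference was -0.64 ± 0.19 (log2, SE, n = 3 each), 1.56-fold lower, with a limma adjusted p of 0.04927. At 48 h PALB2 averaged 8.56 ± 0.07 in Nnm cells and 8.53 ± 0.09 in control cells (SD, n = 3 each), and the groups overlapped.

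**Figure D1:**
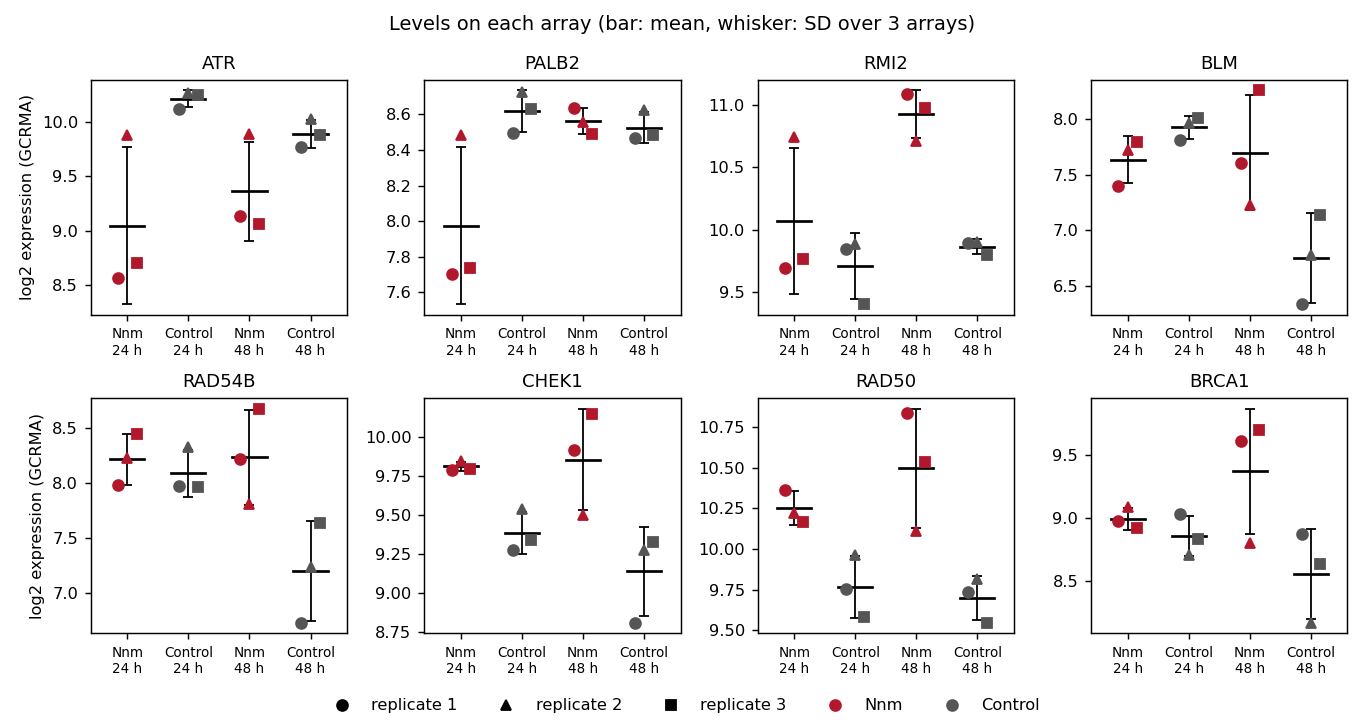
Log2 expression levels of 8 genes on each of the 12 arrays, with Nnm in red left of its control in grey at each time; symbols give the replicate number, bars the mean and whiskers the SD over 3 arrays. ATR and PALB2 lie lowest on Nnm arrays 1 and 3 at 24 h, and RMI2, RAD54B, BLM, RAD50 and CHEK1 lie above their controls on all 3 Nnm arrays at 48 h.

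In a culture measured in bulk, fewer cells of a type and less RNA per cell cannot be told apart, and this holds for every difference given here. At 24 h the signs of the members were mixed, with 12 above and 16 below 0 and a median difference of -0.19, beside -0.01 over all tested probe sets. The median was -0.01 without Nnm replicate 1 at 24 h, -0.09 without Nnm replicate 3, -0.11 without control replicate 2 and -0.31 without Nnm replicate 2 of that time. NBN, the MRN subunit that brings ATM to breaks, differed by -0.62 with a limma adjusted p of 0.05299, but its other 3 probe sets differed by 0.05 to 0.11. FANCI, the partner of FANCD2, differed by -0.85 with a limma adjusted p of 0.1084 and levels of 8.43, 9.98 and 8.68 in Nnm cells, against 9.89, 9.82 and 9.93 in control cells. FANCM, the translocase that anchors the core complex to DNA, differed by 0.60 with a limma adjusted p of 0.05857. The summed linear level of the 5 epithelial markers was 19821 to 20828 on the Nnm arrays at 24 h, against 24364 to 29156 on the control arrays, and 18436 to 30303 against 21923 to 27601 at 48 h. That of the 6 fibroblast markers was 3713 to 7049 on the Nnm arrays at 24 h, against 5367 to 7418 on the control arrays, and 4159 to 6435 against 5009 to 5356 at 48 h. The 4 podocyte markers, of which PODXL and SYNPO were above log2 4, summed to 178 to 236 on the Nnm arrays at 24 h, against 137 to 169 on the control arrays, and to 186 to 236 against 138 to 170 at 48 h, without overlap at either time. The 12 proximal tubule markers summed to 3998 to 9422 on the Nnm arrays at 24 h, against 3432 to 5307 on the control arrays, and at 48 h to 8633 to 13451 against 5048 to 6818, without overlap. The 5 endothelial markers, none above log2 4 on all arrays, summed to 42.2 to 77.4 on the Nnm arrays at 24 h, against 44.7 to 49.3 on the control arrays, and at 48 h to 54.3 to 57.9 against 43.1 to 51.0. Their part in the results was not tested.

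The calls at 24 h changed when single arrays were left out. Leaving out a 48 h array does not change a 24 h estimate, only the spread shared by the groups and its degrees of freedom. Members called lower were 0 without any 1 of the 6 control arrays, of Nnm replicates 1 and 3 at 24 h, or of Nnm replicate 3 at 48 h. They were 1 (ATR) without Nnm replicate 1 at 48 h, 3 without Nnm replicate 2 at 48 h and 10 without Nnm replicate 2 at 24 h. With 1 array left out, 81 to 8683 of all 22829 probe sets were called. With the replicate number as a block, 3 members were called lower (PALB2, NBN and ATR) and 1 higher (FANCM). In either direction the block called 6700 of all 22829 probe sets. Without both Nnm arrays numbered 2, 11 members were called lower, among them FANCI, FANCG, FANCF, FANCL, RAD51D, RAD54L, BRIP1 and RMI1, and 2 were called higher (FANCM and RAD50); 10730 of the 22829 probe sets were then called. The other members' levels on these arrays therefore differed by replicate: against the control mean, the member median was -0.46, 0.22 and -0.14 on Nnm arrays 1, 2 and 3 at 24 h, so array 2 lay on the other side of 0.

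**Figure D2:**
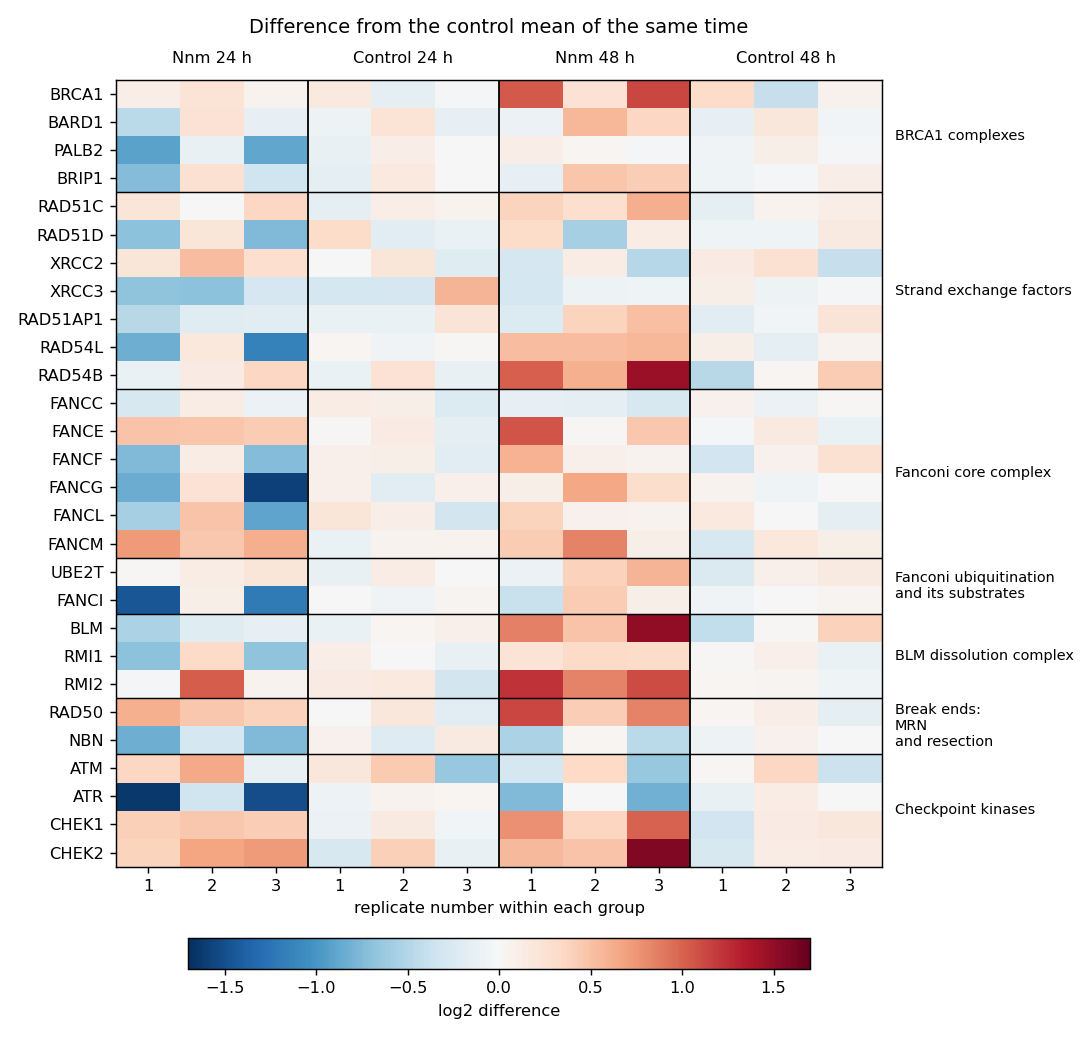
Log2 difference of each measured gene on each array from the control mean of the same time, with genes grouped by role and arrays by group and replicate number. At 24 h ATR, FANCI, PALB2, FANCG and RAD54L are low on Nnm arrays 1 and 3 but not, or less so, on array 2, and at 48 h most genes of arrays 1, 2 and 3 are above 0.

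Nnm against control at 48 h. At 48 h 5 members were called higher in Nnm cells than in control cells, and none lower. These were RMI2 and BLM of the dissolution complex, RAD54B, a motor of strand exchange, RAD50 of the end-binding MRN complex and the kinase CHEK1. They were 1.64 to 2.09-fold higher. The 5 called higher were 17.9% of the 28, where 5.74% of all tested probe sets were called higher, and 0 were called lower, where 4.44% were. In either direction 10.2% of all were called. The members were chosen with earlier results of these data known, so these shares are not an independent test. Of the members, 21 were above and 7 below 0, with a median difference of 0.28, beside 0.01 over all tested probe sets.

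RMI2, a stabilising subunit of the BLM complex, stood at 11.09, 10.71 and 10.98 in Nnm cells at 48 h and at 9.89, 9.90 and 9.79 in control cells. The lowest Nnm array was above the highest control array by 0.81. The difference was 1.06 ± 0.26 (log2, SE, n = 3 each), with a limma adjusted p of 0.03232. At 24 h its levels were 9.70, 10.74 and 9.77 in Nnm cells and 9.85, 9.88 and 9.40 in control cells, so that array 2 alone stood clearly higher.

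BLM, the helicase that undoes crossed DNA strands, had 7.61, 7.23 and 8.26 in Nnm cells at 48 h, against 6.33, 6.78 and 7.14 in control cells. The groups did not overlap, but the lowest Nnm array exceeded the highest control array by only 0.09. The difference was 0.95 ± 0.27 (log2, SE, n = 3 each), with a limma adjusted p of 0.04960. RMI1, the third part of the complex among the 28 measured members, differed by 0.29, with a limma adjusted p of 0.4368. Its Nnm levels of 9.79, 9.88 and 9.87 lay above the control levels of 9.58, 9.64 and 9.45. TOP3A, counted here with the other recombination genes, differed by 0.04 at 48 h, with a limma adjusted p of 0.9101.

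RAD54B, the motor protein, had 8.22, 7.81 and 8.67 in Nnm cells at 48 h and 6.74, 7.24 and 7.64 in control cells, without overlap. The difference was 1.03 ± 0.27 (log2, SE, n = 3 each), with a limma adjusted p of 0.0394. A probe set shared between RAD54B and FSBP differed by -0.04. RAD54L, the main RAD54 motor, differed by 0.54 with a limma adjusted p of 0.2059. Its Nnm levels of 8.13, 8.13 and 8.18 lay above control levels of 7.71, 7.45 and 7.67.

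RAD50, the coiled-coil ATPase that tethers broken ends, had 10.84, 10.11 and 10.54 in Nnm cells at 48 h and 9.73, 9.82 and 9.55 in control cells, without overlap. The difference was 0.80 ± 0.18 (log2, SE, n = 3 each), with a limma adjusted p of 0.02759, and at 24 h it was 0.48 with an adjusted p of 0.09391. The call rests on a single probe set: the other 2 of RAD50 differed by -0.11 and -0.96 at 48 h, with limma adjusted p of 0.8355 and 0.1892. The mean of its 3 probe sets differed by -0.09 with an adjusted p of 0.8031.

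CHEK1, the kinase that slows the cell cycle when ATR is active, had 9.92, 9.50 and 10.14 in Nnm cells at 48 h and 8.81, 9.28 and 9.33 in control cells. The groups did not overlap, and the difference was 0.72 ± 0.19 (log2, SE, n = 3 each) with a limma adjusted p of 0.04008. Its 2 further probe sets differed by 0.54 and 0.55, with limma adjusted p of 0.07054 and 0.1077. At 24 h CHEK1 stood at 9.79, 9.85 and 9.80 in Nnm cells and at 9.28, 9.54 and 9.34 in control cells, a difference of 0.43 with an adjusted p of 0.1309.

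The other kinases and BRCA1 did not pass in the main model. With the replicate number as a block, BRCA1 and CHEK2 did at 48 h, with limma adjusted p of 0.02565 and 0.04061. CHEK2, which acts below ATM, differed by 0.87 at 48 h, with a limma adjusted p of 0.07905 and levels of 8.35, 8.28 and 9.37 in Nnm cells, against 7.53, 7.93 and 7.95 in control cells. These groups did not overlap. BRCA1, the scaffold that favours recombination over end joining, had 9.61, 8.80 and 9.69 in Nnm cells, against 8.87, 8.17 and 8.63 in control cells, a difference of 0.81 with a limma adjusted p of 0.06034. Its second probe set differed by 0.72 with an adjusted p of 0.07152. At 24 h BRCA1 had 8.98, 9.09 and 8.92 in Nnm cells and 9.03, 8.71 and 8.83 in control cells, a difference of 0.14. ATM differed by 0.29 at 24 h and by -0.20 at 48 h, with limma adjusted p of 0.5829 and 0.7264. Its arrays overlapped at both times: 8.51, 8.80 and 8.03 in Nnm cells against 8.36, 8.60 and 7.52 in control cells at 24 h, and 8.38, 9.02 and 8.04 against 8.71, 9.03 and 8.31 at 48 h. For CHEK2 at 24 h the values were 8.18, 8.47 and 8.52 in Nnm cells and 7.53, 8.20 and 7.68 in control cells, and the difference of 0.59 had an adjusted p of 0.1716.

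Among the remaining genes at 48 h, the 6 measured core complex genes differed by -0.19 to 0.52 with 0 called. FANCE, a bridge to FANCD2, was the highest of them, with a limma adjusted p of 0.1492. UBE2T, the enzyme that passes ubiquitin to FANCD2, differed by 0.29 and FANCI by 0.05. Of the factors that assist strand exchange, RAD51C differed by 0.43 with a limma adjusted p of 0.08472. Its second probe set differed by -0.03. XRCC2, XRCC3 and RAD51D differed by -0.22, -0.15 and -0.04. BARD1 and BRIP1, the ubiquitin ligase partner and the helicase of BRCA1, differed by 0.27 and 0.25, and RAD51AP1, a DNA-binding protein of the same step, by 0.22. NBN differed by -0.32. The probe sets that ATRIP, the partner of ATR, shares with TREX1 differed by 0.03 and 0.02 at 48 h, and by -0.69 and -0.61 at 24 h with limma adjusted p of 0.1398 and 0.1432.

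**Figure D3:**
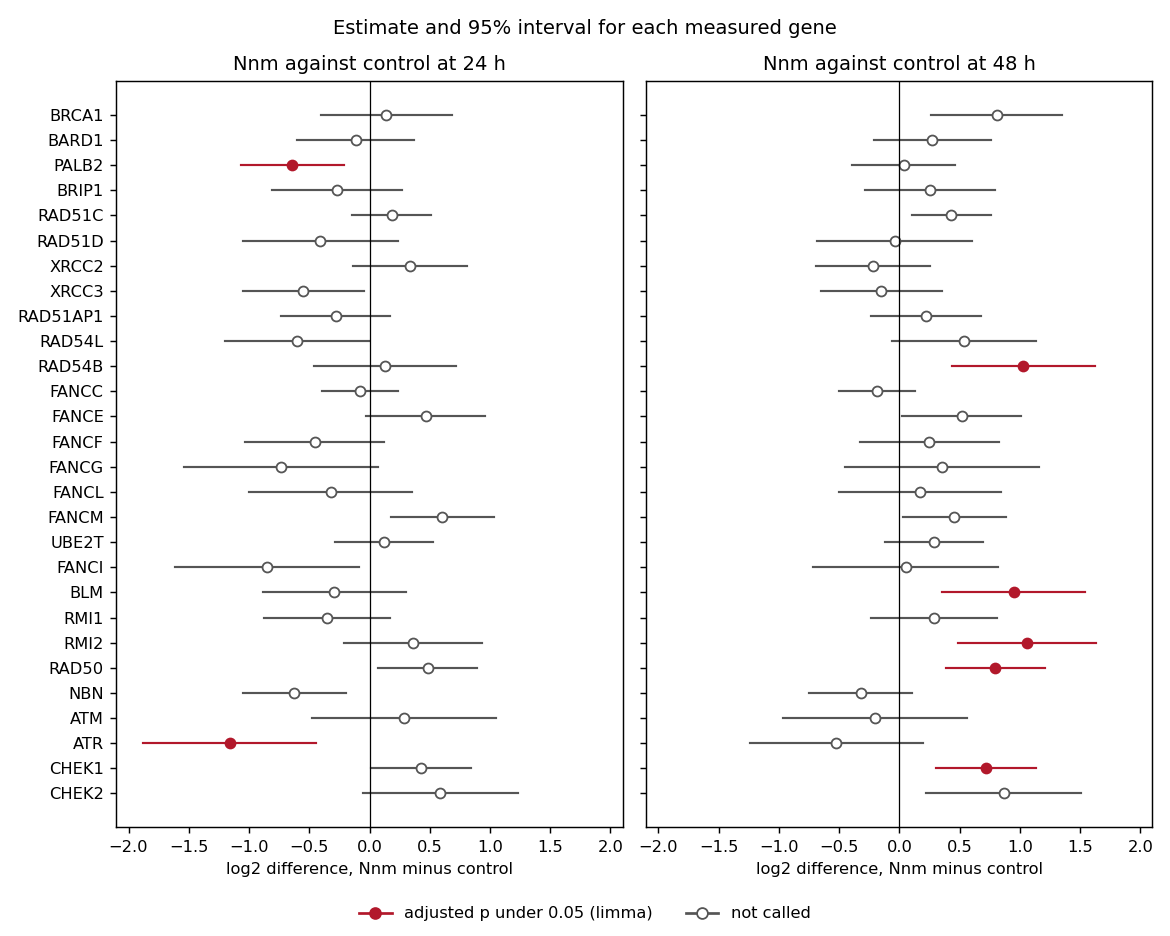
Estimated log2 difference of Nnm minus control for each of the 28 measured genes with its 95% interval from limma, at 24 h and at 48 h; filled red points passed the adjusted threshold. PALB2 and ATR are called on the low side at 24 h, and RAD54B, BLM, RMI2, RAD50 and CHEK1 on the high side at 48 h.

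The groups did not overlap for 10 members on the high side and 1 on the low side at 48 h, where 18.7% and 16.1% of all tested probe sets did so, and for 4 and 5 members at 24 h, where the shares were 18.4% and 18.9%. Taken by pairs of the same replicate number, 14 members were higher and 5 lower in all 3 pairs at 48 h, where 30.8% and 28.7% of all tested probe sets were. At 24 h 8 were higher and 6 lower in all pairs, where 28.9% and 29.7% were. The calls at 48 h also changed when single arrays were left out, where a 24 h array bears only on the shared spread and not on the estimate. Members called higher were 0 without Nnm replicate 1 or 3 at 48 h or without any 1 of the 3 control arrays at 48 h. They were 1 (RAD50) without control replicate 1 at 24 h and 2 (RMI2 and RAD50) without control replicate 2 or 3 or Nnm replicate 3 at 24 h. They were 3 without Nnm replicate 1 at 24 h, with RAD54B added, 7 without Nnm replicate 2 at 24 h and 9 without Nnm replicate 2 at 48 h. With 1 array left out, 207 to 6117 of all 22829 probe sets were called. With the replicate number as a block, 8 were called higher, adding BRCA1, RAD51C and CHEK2. In either direction the block called 5046 of all 22829 probe sets. Unlike at 24 h, the member median against the control mean had the same sign on all 3 Nnm arrays at 48 h, at 0.27, 0.35 and 0.33. Without both Nnm arrays numbered 2, 10 members were called higher and 2 lower (NBN and ATR). In that setting 9605 of all 22829 probe sets were called, so a large share of all features was called as well.

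Where a gene had more than 1 tested probe set, the probe sets did not always move together. Of 12 such genes, the signs agreed for 7 at 24 h and for 7 at 48 h. ATR and FANCI had all their probe sets below 0 at 24 h, and BRCA1, BARD1, BRIP1, FANCM and CHEK1 had all theirs above 0 at 48 h. RAD51C, RAD50 and NBN were split at both times.

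**Figure D4:**
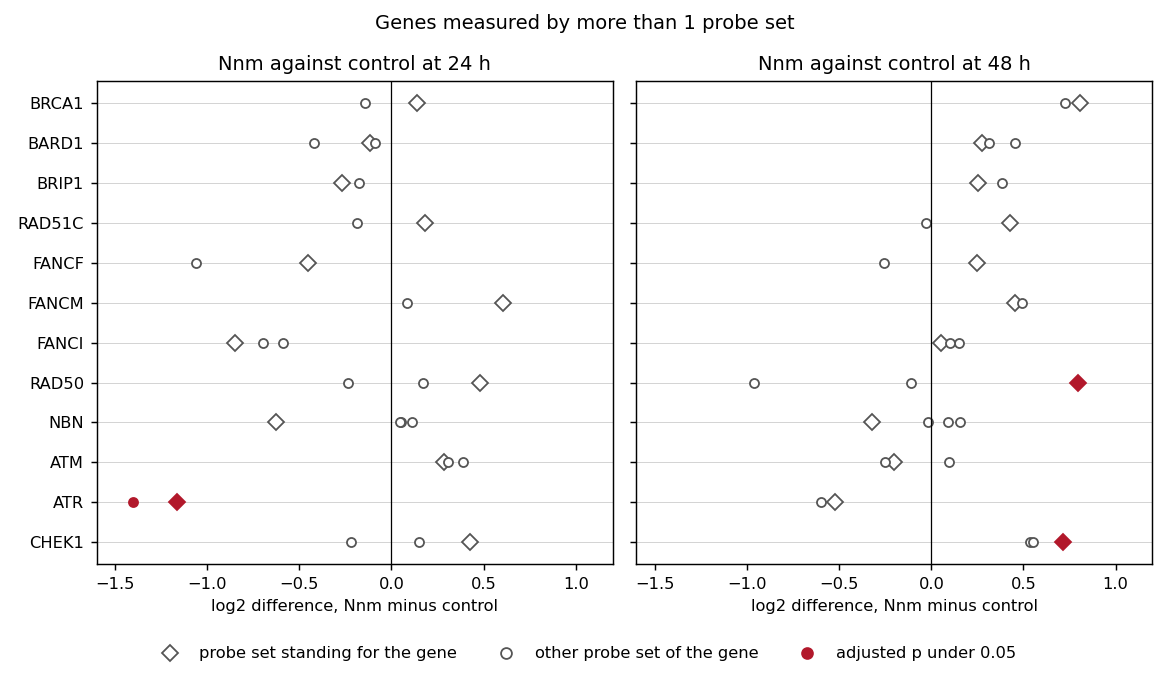
Log2 difference of Nnm minus control for each tested probe set of the 12 genes with more than 1, at 24 h and at 48 h; diamonds mark the probe set standing for the gene and filled red symbols an adjusted p under 0.05. Both ATR probe sets are called at 24 h, whereas RAD50 has 1 called probe set at 48 h and 2 on the other side of 0.

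Time within each treatment. No member passed the test between 48 h and 24 h in either treatment, but most estimates lay below 0 in control cells. In Nnm cells most lay above 0 by group means, though few members had the same sign in all 3 pairs. In control cells 21 of 28 members were below 0 for 48 h minus 24 h, with a median of -0.25, where 52.3% of all tested probe sets were below 0. For 14 members all 48 h control arrays lay below all 24 h control arrays, where 12.1% of all tested probe sets did so, and for 1 they lay above, where 11.2% did. By replicate number, 18 members were lower at 48 h in all 3 pairs of control arrays, where 29.9% of all tested probe sets were, and 5 were higher, where 25.7% were. Limma called 0 probe sets of any gene between the control groups, with 1836 at an unadjusted p under 0.05, and the lowest adjusted p among members was 0.3399, for BLM. In Nnm cells 23 members were above 0 and 5 below, with a median of 0.16, where 48.9% of all tested probe sets were above 0. By replicate number, however, 4 members were higher and 5 lower at 48 h in all 3 pairs of Nnm arrays, where 21% of all tested probe sets were in each direction. The median was 0.07 without Nnm replicate 1 at 24 h and 0.26 without Nnm replicate 2 at 48 h. The arrays of the times did not overlap for PALB2, which lay higher at 48 h, and for FANCM, which lay lower, where 5.61% and 6.02% of all tested probe sets were so placed. Limma called 0 probe sets there too, with 3138 at an unadjusted p under 0.05.

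BLM and RAD54B show how this bears on the comparison at 48 h. BLM averaged 7.70 ± 0.52 in Nnm cells at 48 h and 7.64 ± 0.21 in Nnm cells at 24 h, but 6.75 ± 0.40 in control cells at 48 h and 7.93 ± 0.10 in control cells at 24 h (SD, n = 3 each). RAD54B averaged 8.23 ± 0.43 in Nnm cells at 48 h and 8.22 ± 0.23 at 24 h, but 7.21 ± 0.45 in control cells at 48 h and 8.09 ± 0.21 at 24 h. For both genes the Nnm means were alike and the control means lower at the later time. RMI2 had the other arrangement, with 10.93 ± 0.19 in Nnm cells at 48 h and 10.07 ± 0.58 at 24 h, against 9.86 ± 0.06 in control cells at 48 h and 9.71 ± 0.27 at 24 h. For 48 h minus 24 h, RAD50 differed by 0.25 in Nnm cells and -0.07 in control cells, and CHEK1 by 0.04 and -0.25. The control arrays at 48 h enter both the treatment and the time comparison, so these are the same values seen from different sides and not separate evidence.

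The difference between the Nnm effects at 48 h and at 24 h was above 0 for 24 of 28 members, with a median of 0.45, where 51.8% of all tested probe sets were above 0. Limma called 0 probe sets in this comparison, with 1418 at an unadjusted p under 0.05, and 4 members were among those. BLM had the highest value, at 1.24 with a 95% interval from 0.40 to 2.08 and a limma adjusted p of 0.7797, followed by RAD54L at 1.14 with the same adjusted p. Without both Nnm arrays numbered 2, 11 members were called higher in this comparison, where 2556 of all 22829 tested probe sets were called in either direction. BLM then differed by 1.52, with a limma adjusted p of 0.03585. Without 1 array at a time, 0 to 6 members and 0 to 1028 of all probe sets were called.

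**Figure D5:**
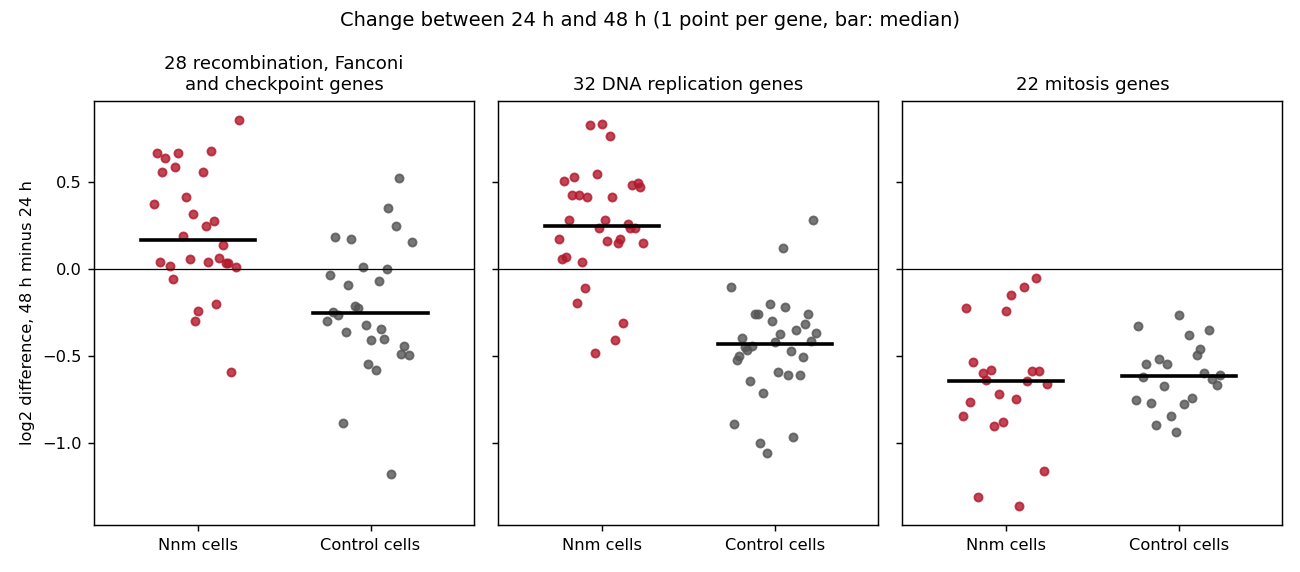
Log2 difference of 48 h minus 24 h for each gene, Nnm cells left of control cells, in the 28 recombination, Fanconi and checkpoint genes, in 32 DNA replication genes and in 22 mitosis genes; bars are medians. The first 2 sets lie mostly above 0 in Nnm cells and below 0 in control cells, and the mitosis genes lie below 0 in both.

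Related genes. The lists of further genes were written from textbook knowledge, with earlier results of these data known, so their counts are no independent test. In them, rose and fell mean called higher or lower in Nnm cells than in control cells of the same time. Of 32 tested other recombination and Fanconi genes, 1 rose and 2 fell at 24 h and 7 rose and 0 fell at 48 h, with median differences of -0.04 and 0.24. With the replicate block these counts were 5 and 6 at 24 h and 8 and 5 at 48 h, so that falls at 48 h were called under the block alone. Beside these and the next lists, in the main model 7.32% of all tested probe sets were called higher and 7.42% lower at 24 h. At 48 h these shares were 5.74% and 4.44%. With the block, 6700 of all 22829 probe sets were called in either direction at 24 h and 5046 at 48 h. The 6 with the largest rises at 48 h were FANCB, of the Fanconi core complex, at 1.56, the resection nuclease EXO1 at 1.16, the end-joining polymerase POLQ at 1.11, the helicase HELQ at 1.11, the MRN nuclease MRE11 at 0.81, and RNF8, the ubiquitin ligase that marks breaks, at 0.73 (log2 differences, limma adjusted p 0.01156 to 0.04169). At 24 h WDR48, the cofactor of the deubiquitinase USP1, rose by 0.75, while the nuclease MUS81 differed by -0.54 and BABAM1, of the BRCA1-A complex, by -0.88 (limma adjusted p 0.04294 and 0.02282).

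Of 18 other checkpoint genes, 0 rose and 2 fell at 24 h, and 2 rose and 0 fell at 48 h. Their median differences were -0.22 and 0.20. With the replicate block, 5 fell at 24 h and 4 rose at 48 h. H2AX, the histone phosphorylated at breaks, differed by -1.59 and PKMYT1, a kinase that holds CDK1 inactive, by -0.92 at 24 h. WEE1, the other such kinase, rose by 0.68 and RAD1, of the clamp that activates ATR, by 0.57 at 48 h, with limma adjusted p of 0.03426 and 0.04046.

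The 32 DNA replication genes had medians of the same sign as the group at each time, as had the lists of other recombination and checkpoint genes. At 24 h 5 fell and 0 rose, with a median of -0.48, and with the replicate block 7 fell and 1 rose. The 5 were POLA2, a subunit of the priming polymerase, at -1.89, the ligase LIG1 at -1.54, CDC45 and MCM4 of the replicative helicase at -1.17 and -0.90, and thymidylate synthase, TYMS, at -0.80. At 48 h 5 rose and 0 fell, with a median of 0.25: ORC1 and CDT1, which license origins, at 1.37 and 1.29, the S-phase cyclin CCNE2 at 0.92, GINS3 of the replicative helicase at 0.68, and RFC3 of the clamp loader at 0.60. With the block 9 rose and 0 fell at 48 h. Over time in control cells 30 of the 32 were below 0, with a median of -0.43, and in Nnm cells 27 were above 0, with a median of 0.25.

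The 22 mitosis genes had median Nnm minus control differences of -0.18 at 24 h and -0.17 at 48 h. Over time they differed from the replication genes in Nnm cells. All 22 were below 0 for 48 h minus 24 h in both Nnm and control cells, with medians of -0.64 and -0.62. BUB1B, a kinase of the spindle checkpoint, at -0.59 at 24 h, was the only gene of that list to be called in an Nnm comparison. Whether the share of cells in S phase moved with the values of the recombination genes was not tested, and no measurement of the cell cycle was used here.

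Promoter sequences are shown for the called genes, as 2 were called lower at 24 h and 5 higher at 48 h. RefSeq windows on GRCh38.p14, from 250 bases before to 50 after the annotated start, were at hand for 24 of the 28 measured genes, and RMI2 and RAD54B had none. The windows of the 5 other called genes are printed 5′ to 3′ on the strand of the gene. ATR lies at chr3:142578684-142578983 on the minus strand, PALB2 at chr16:23641261-23641560 on the minus strand, BLM at chr15:90717096-90717395 on the plus strand, RAD50 at chr5:132556727-132557026 on the plus strand and CHEK1, in the first of its 3 windows, at chr11:125625979-125626278 on the plus strand. Capitals mark, on either strand, the ETS core CCGGAA, the CCAAT box CCAAT and the E2F core TTCCCGC. The last ETS core and the last E2F core of the BLM window overlap.
ATR: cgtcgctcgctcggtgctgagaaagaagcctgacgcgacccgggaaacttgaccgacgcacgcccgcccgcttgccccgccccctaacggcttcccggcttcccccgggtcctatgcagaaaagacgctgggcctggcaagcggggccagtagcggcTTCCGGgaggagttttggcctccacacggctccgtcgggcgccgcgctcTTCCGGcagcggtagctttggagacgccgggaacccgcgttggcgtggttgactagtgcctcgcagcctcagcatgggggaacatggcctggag
PALB2: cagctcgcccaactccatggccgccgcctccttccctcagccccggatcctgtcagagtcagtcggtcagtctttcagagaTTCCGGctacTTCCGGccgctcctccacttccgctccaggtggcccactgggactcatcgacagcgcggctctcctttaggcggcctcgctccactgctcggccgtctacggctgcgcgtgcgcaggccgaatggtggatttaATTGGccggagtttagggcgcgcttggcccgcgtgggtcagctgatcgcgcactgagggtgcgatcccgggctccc
BLM: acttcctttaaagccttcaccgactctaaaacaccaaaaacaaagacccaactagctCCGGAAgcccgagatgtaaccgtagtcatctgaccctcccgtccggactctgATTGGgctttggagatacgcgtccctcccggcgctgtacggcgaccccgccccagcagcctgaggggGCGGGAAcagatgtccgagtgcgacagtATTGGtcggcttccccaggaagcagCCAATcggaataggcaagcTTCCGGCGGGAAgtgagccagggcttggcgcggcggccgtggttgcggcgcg
RAD50: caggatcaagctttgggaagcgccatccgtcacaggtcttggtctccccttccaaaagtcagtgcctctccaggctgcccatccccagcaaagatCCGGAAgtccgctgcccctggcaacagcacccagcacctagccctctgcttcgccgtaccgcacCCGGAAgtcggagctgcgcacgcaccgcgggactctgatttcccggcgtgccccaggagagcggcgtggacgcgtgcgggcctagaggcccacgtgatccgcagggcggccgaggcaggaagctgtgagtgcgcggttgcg
CHEK1: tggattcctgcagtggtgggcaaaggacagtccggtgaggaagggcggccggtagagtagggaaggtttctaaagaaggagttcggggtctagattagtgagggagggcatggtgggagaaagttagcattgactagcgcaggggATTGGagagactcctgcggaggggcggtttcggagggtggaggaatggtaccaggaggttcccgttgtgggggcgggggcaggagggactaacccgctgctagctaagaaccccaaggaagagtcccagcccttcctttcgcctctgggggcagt

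The E2F core was the motif in which the group and the background were farthest apart. It lay in a window of 14 of the 24 genes (58.3%), where 13.3% of the 9077 tested genes with a window and 7.82% of all 27305 genes in the table held it. Of the 5 printed windows BLM alone held it, with 2 matches. The CCAAT box lay in 58.3% of the 24 genes and 44.0% of tested genes, and the ETS core in 33.3% and 35.7%, so the last hardly differed. The longer E2F-like letters (TTTGGCGC, TTTCCCGC, which contains the E2F core, TTTGCCGC or TTTCGCGC) lay in 12.5% of the members and 7.01% of tested genes, and the CHR element TTTGAA in 16.7% and 13.7%. The 3 motifs in capitals were added after the search for the longer letters and the CHR element found none in the printed windows. A gene counts once where any of its windows matches, and a match describes letters and not a binding site.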

How the data were processed

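Total RNA of each sample was converted to biotinylated cRNA and hybridised to 1 array, per the labels' protocols. The deposited values are on the log2 scale, 1 for each probe set of an array. The submitters' processing notes name GCRMA, without a version. GCRMA corrects background by probe sequence and brings arrays to a common distribution, so a shift of most transcripts at once is hidden, and the values carry no detection call. Neither scanner files nor the set of arrays normalized together are given in the sources used here.

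Of 54675 probe sets, 62 manufacturer's controls were left out, and 22829 with log2 above 4 on at least 3 of 12 arrays were tested. The platform annotation named 1 gene for 41097 probe sets, several for 1801 and none for 11777. Where several probe sets named a gene alone, the brightest on average over the 12 arrays stood for it. Levels of different probe sets were not compared.

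All arrays entered 1 limma 3.58.1 model (R 4.3.3) with 4 groups and 8 residual degrees of freedom, from which 5 contrasts were taken. Adjusted p-values are Benjamini-Hochberg over all tested probe sets. The SE of a difference is limma's moderated SE, with the spread of a probe set shared over the 4 groups. The number of arrays limits the precision.

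Members and lists were chosen with earlier results of these data known. Per-array values are given for members called in a contrast and for BRCA1, CHEK1, CHEK2, ATM and ATR. RMI1, RAD54L and FANCI were added after their values were seen. Of the other lists, up to 6 called genes with the largest differences are named per Nnm comparison. TOP3A, which was not called, is named beside BLM and RMI1.

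Deviations from the group means were correlated between arrays that carry the same number. Each of the 18 such pairs gave a correlation over 0.1 (0.162 to 0.669). Of 36 pairs with unlike numbers, 2 were over 0.1, with a median of -0.208 and a highest value of 0.372. Deviations within a group sum to 0, so low values for unlike numbers follow from high values for like ones and are not separate evidence. The numbers are therefore read as pairs, on the data and not on a statement in the labels. The main model does not use the pairing, and the replicate block does. Alternatives were another filter, no filter, quantile normalization, the mean of a gene's probe sets, a trended robust prior, array weights, the replicate block, and leaving out arrays.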

Additional observations from a re-analysis of the deposited data

Results flagged for a closer look

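The second ATR probe set, which does not stand for the gene in the counts, was called as well: Nnm minus control at 24 h was -1.40 on the log2 scale, with a limma adjusted p of 0.03822. It is listed here because it is a signal in values that the comparisons by gene did not use.

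BLM differed between times in the direction of all its Nnm arrays. At 24 h its 3 Nnm arrays lay below the control mean and at 48 h all 3 lay above it, and the Nnm effect at 48 h minus that at 24 h was 1.24. The limma test of that difference gave an adjusted p of 0.7797, so it did not pass, and the groups of 3 arrays were not tested for single outlying values.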

How the results depend on the processing

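The calls depended on single arrays and on the number of probe sets adjusted over. The directions hardly changed. However, the filters, the prior, the replicate block and leaving out an array of the other time cannot change an estimate. The same direction under those alternatives was fixed in advance. Over 20 alternatives, PALB2, ATR, RAD54B, BLM, RMI2 and CHEK1 had the same direction in all 20 and RAD50 in 19, while they stayed called in 8, 10, 10, 8, 13, 9 and, for RAD50, 13. RAD50 at 48 h turned to -0.091 as the mean of all its probe sets, since its probe sets differ.

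Leaving out 1 array at a time, at 24 h 0 to 10 members were called lower, 0 to 2 higher and 81 to 8683 probe sets in all, and the member median was -0.31 to -0.01. At 48 h 0 to 9 members were called higher and 207 to 6117 probe sets, and the member median was 0.23 to 0.44. For the change of the Nnm effect these were 0 to 6 members and 0 to 1028 probe sets, for time in control cells 0 to 4 probe sets, and for time in Nnm cells 0 to 9 members higher, 0 to 1 lower and 0 to 3683 probe sets. Why a single array moves the counts so far was not tested.

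Without a filter, 848 probe sets were called at 24 h, 842 at 48 h, 2 for the change of the effect, 1 for time in control cells and 16 for time in Nnm cells, with 0 members at either time. The stricter filter gave 1 probe set for time in control cells and 3 members lower at 24 h. Quantile normalization left 1 member lower at 24 h. With the mean of a gene's probe sets, 1949 and 1317 features were called at 24 h and 48 h and 2 for time in Nnm cells, fewer features being tested. The trended robust prior gave 3 members lower at 24 h.

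With the replicate block, which uses the pairing, 1 member was called higher and 3 lower at 24 h, 8 higher at 48 h, and 6700, 5046 and 12 probe sets at 24 h, at 48 h and for time in control cells. It changed no other count of members called. Its counts for the other lists and the markers stand beside them.

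With array weights, 4 members were called higher and 11 lower at 24 h, 11 higher and 2 lower at 48 h, 14 for the change of the effect (median 0.71), and 11 higher and 1 lower for time in Nnm cells. Probe sets called were then 12093, 11202, 3899, 94 and 7850 in the order 24 h, 48 h, change, control time and Nnm time. Without both Nnm arrays numbered 2 the counts were 2 higher and 11 lower at 24 h, 10 higher and 2 lower at 48 h (median 0.23), 11 for the change, and 11 higher and 1 lower for time in Nnm cells, with 10730, 9605, 2556, 26 and 4985 probe sets in the same order.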
